A study of Mus musculus with 15 samples.

Results

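The 6 genes described here are Hmga1, Hmga2, Igf2bp1, Igf2bp2, Igf2bp3 and Lin28b, taken by symbol as the oncofetal chromatin and RNA regulators of the let-7 and Lin28 circuit, out of 46603 genes in the count tables. The rule names genes and uses no measured value, but the genes were chosen with earlier results of these data known. The paper itself lists Hmga2 among genes lower in both MEFD3plu and MEFD5plu. All 6 passed the filter on low counts that left 15997 genes for testing. RNA sequencing was done on wild-type mouse embryonic fibroblasts (MEFs), which are cultured mesenchymal cells, from 10.5 day old embryos of the BALB/c strain. All 15 samples share that strain and embryo age. The paper's introduction gives another strain and embryo age for MEFs in general, and its methods give neither. The design had 5 conditions with 3 samples each. MEFD0 cells were collected at confluency in growth medium (DMEM with fetal bovine serum). MEFD3plu cells then spent 3 days in differentiation medium holding insulin (10 µg/mL), rosiglitazone (10 µM), dexamethasone (1 µM) and isobutylmethylxanthine (0.5 mM), and MEFD5plu cells spent 2 more days back in growth medium. MEFD3min and MEFD5min cells stayed in growth medium throughout and were collected on the same days. The labels do not say whether the samples of a condition came from separate embryos or cultures. The paper describes its results as means of 3 or more independent experiments, without saying whether this covers the sequencing. The p-values therefore measure only the spread between these samples, which may be technical.

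Several of these genes are known as oncofetal because they are abundant in embryonic cells, low in most adult tissues and high again in many tumours. Hmga1 and Hmga2 encode AT-hook proteins that bend AT-rich DNA and open chromatin, and Hmga2 is known to act in proliferating mesenchymal precursors. Igf2bp1, Igf2bp2 and Igf2bp3 encode RNA-binding proteins that stabilise and localise mRNAs such as those of Myc, Actb and Igf2, and that also read the N6-methyladenosine (m6A) mark. Lin28b encodes an RNA-binding protein that blocks the maturation of let-7 microRNAs, and let-7 in turn is known to repress Lin28b, Hmga2 and the Igf2bp genes through matches to its seed in their 3′ untranslated regions (UTRs).

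The let-7 sequences are shown because the textbook account of this circuit turns on that seed. RefSeq (build GRCm38.p6) gave 11 distinct mature let-7 and miR-98 sequences, and 10 of them share the seed GAGGUAG at bases 2 to 8, while let-7j has GAGGUAU. Sequences of 4 of the 10 are printed 5′ to 3′ with the seed in capitals.
let-7a-5p: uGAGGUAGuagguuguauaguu
let-7e-5p: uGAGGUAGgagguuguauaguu
let-7g-5p: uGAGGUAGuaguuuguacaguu
miR-98-5p: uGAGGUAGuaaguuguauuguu

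Every member carried at least 1 exact complement of that seed (CTACCTC on the mRNA strand) in its annotated 3′ UTR (GENCODE M21, GRCm38). Hmga2, Igf2bp1 and Lin28b each held 4 matches and Hmga1, Igf2bp2 and Igf2bp3 held 1 each, whereas 10.5% of 13141 tested genes with an annotated 3′ UTR held any. Only 10 of those genes held 4 or more, and Nr6a1, Mcf2l, Nudt12 and Trim6 were the 4 genes with more than 4. The 3′ UTRs differed in length, from 1183 bases in Hmga1 to 6337 in Igf2bp1, and among genes with a 3′ UTR about as long as its own the share with any match was 8.93% for Hmga1 and 36.0% for Igf2bp1. A match followed by A, the stronger 8-base form, was found once in Hmga2, Igf2bp2, Igf2bp3 and Lin28b, at 3 places in Igf2bp1 and not in Hmga1. The 4 Hmga2 matches and the match nearest the stop codon in each other member are printed 5′ to 3′ on the mRNA strand with the seed complement, and the A where present, in capitals. All lie in exons, in the 3′ UTR as annotated. Mature let-7 itself was not measured in these libraries, and a match is a description of the sequence only. Hmga2, Lin28b and the Igf2bp genes are known let-7 targets, so their matches follow from the choice of genes.
Hmga1 match 1, chr17:27563276-27563299, plus strand: ctcctctgttcacaaaCTACCTCt
Hmga2 match 1, chr10:120364224-120364247, minus strand: cgccgacattcaatttCTACCTCA
Hmga2 match 2, chr10:120362987-120363010, minus strand: tccccactcctcaataCTACCTCt
Hmga2 match 3, chr10:120362549-120362572, minus strand: cctgatttgcaaggaaCTACCTCc
Hmga2 match 4, chr10:120361691-120361714, minus strand: caatcaaaacacactaCTACCTCt
Igf2bp1 match 1, chr11:95961778-95961801, minus strand: tgctgtgcgaagtaaaCTACCTCA
Igf2bp2 match 1, chr16:22059473-22059496, minus strand: aacacacaaataaaagCTACCTCA
Igf2bp3 match 1, chr6:49086787-49086810, minus strand: gtgcatttttactcaaCTACCTCA
Lin28b match 1, chr10:45381022-45381045, minus strand: cacccgggcgggaagtCTACCTCA

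**Figure D1:**
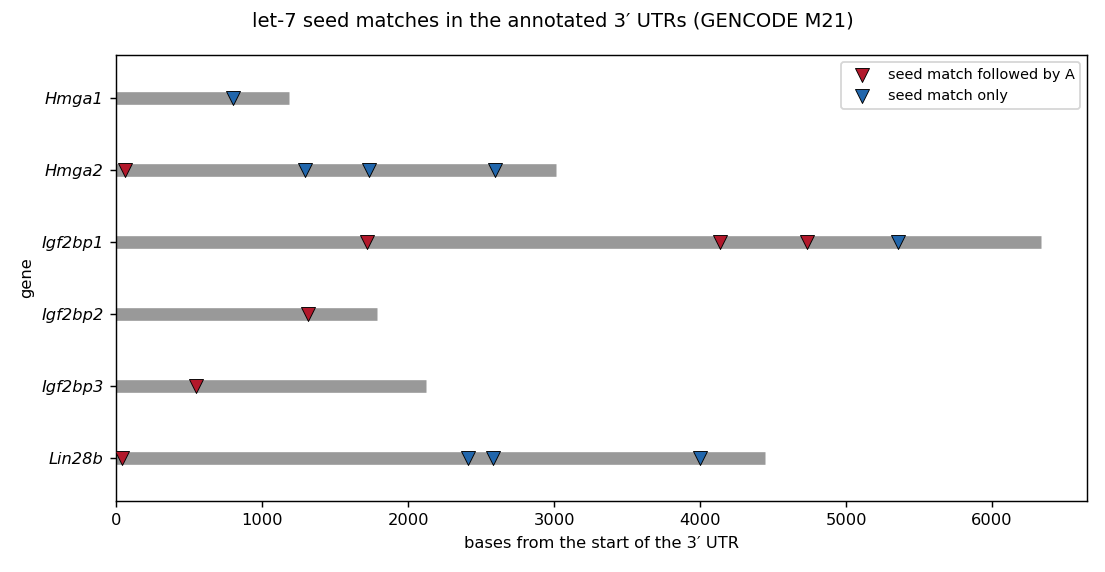
Grey bars show the annotated 3′ UTR of each gene to scale, in bases from its start, and triangles mark let-7 seed matches (red where an A follows, blue otherwise). Hmga2, Igf2bp1 and Lin28b carry 4 matches each and the other 3 genes carry 1 each.

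Counts assigned to genes ran from 24030558 to 37281126 per sample, and the 10 most abundant genes held between 5.96% and 9.61% of them. As a sum, the fibroblast list was abundant in every condition, with medians from 9236 CPM (counts scaled to a common library size) in MEFD0 to 23615 in MEFD3min. Its members did not move together. In MEFD3min/MEFD0, 6 of 9 were higher and 2 lower. The log2 change was 8.80 for Lum, 7.53 for Dcn and 5.33 for Col3a1, against -1.22 for Vim and -0.29 for Thy1. The summed macrophage, endothelial, epithelial, skeletal muscle and pluripotency lists stayed under 5 CPM and the neural list reached 10.2 CPM in MEFD0. The adipocyte list had medians of 57.9, 56.8 and 42.4 CPM in MEFD0, MEFD3min and MEFD5min against 7878 in MEFD3plu and 11109 in MEFD5plu. MEFD0 stood apart from all other libraries: 16 genes were at least 20-fold lower in every MEFD0 sample than in any other sample while reaching 10 CPM or more in all of those, against 0 or 1 such gene for any other condition. Igf2 and H19 were among the 16, and they return with the Igf2bp genes. In comparisons with MEFD0, this difference and time in culture cannot be told apart, and its part was not tested.

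Per kilobase of exon, the 6 genes spanned a wide range of expression in these cells. Hmga1 was the highest, with 398 ± 11.1 CPM per kb in MEFD0 (SD, n = 3), and ranked 66 of 15929 genes with a length. Hmga2 followed with 245 ± 9.44 CPM per kb and rank 123. Igf2bp2 had 19.04 ± 0.730 CPM per kb, Igf2bp3 6.39 ± 0.465 and Igf2bp1 6.18 ± 0.551, and Lin28b had 0.603 ± 0.0288 CPM per kb and rank 11802. The order of the Hmga genes depends on the length used: with the longest transcript in place of all exons, Hmga1 was 49.2% of their summed level in MEFD0 in place of 61.9%. Lin28b lay above 25.9% of the genes in MEFD0. Its raw counts ran from 94 to 243 per sample across all conditions, and its relative Lin28a had 0 counts in every library except 1, which had 1 count. Fewer cells that express a gene and less RNA per cell cannot be told apart in these bulk samples, and this holds for every level given.

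Hmga2 lies on the minus strand of chromosome 10 (GRCm38, chr10:120361275-120476469, ENSMUSG00000056758). Its level was 1718, 1673 and 1592 CPM in the 3 MEFD0 samples, 585, 624 and 633 in MEFD3min, 1302, 1517 and 1222 in MEFD5min, 264, 237 and 239 in MEFD3plu and 843, 847 and 826 in MEFD5plu. None of the 10 pairs of conditions overlapped, every MEFD0 sample was above all others and every MEFD3plu sample was below all others.

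Hmga1 lies on the plus strand of chromosome 17 (chr17:27556497-27563674, ENSMUSG00000046711). Its level was 834, 872 and 829 CPM in MEFD0, 252, 265 and 291 in MEFD3min, 554, 665 and 560 in MEFD5min, 135, 130 and 147 in MEFD3plu and 451, 442 and 394 in MEFD5plu. The 5 conditions took the same order as for Hmga2, namely MEFD0, MEFD5min, MEFD5plu, MEFD3min and MEFD3plu from high to low, again with no overlap in any pair. Among all tested genes, 4.41% had no overlap in any pair of conditions. In both genes all 4 neighbours in that order differed (edgeR quasi-likelihood test, adjusted p from 1.34e-09 to 0.00954), the closest being Hmga2 in MEFD0 and MEFD5min. The step between MEFD5plu and MEFD3min, where 31.1% of all genes were higher in MEFD5plu and 25.7% lower, was 0.67 for Hmga1 and 0.45 for Hmga2 on the log2 scale.

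**Figure D2:**
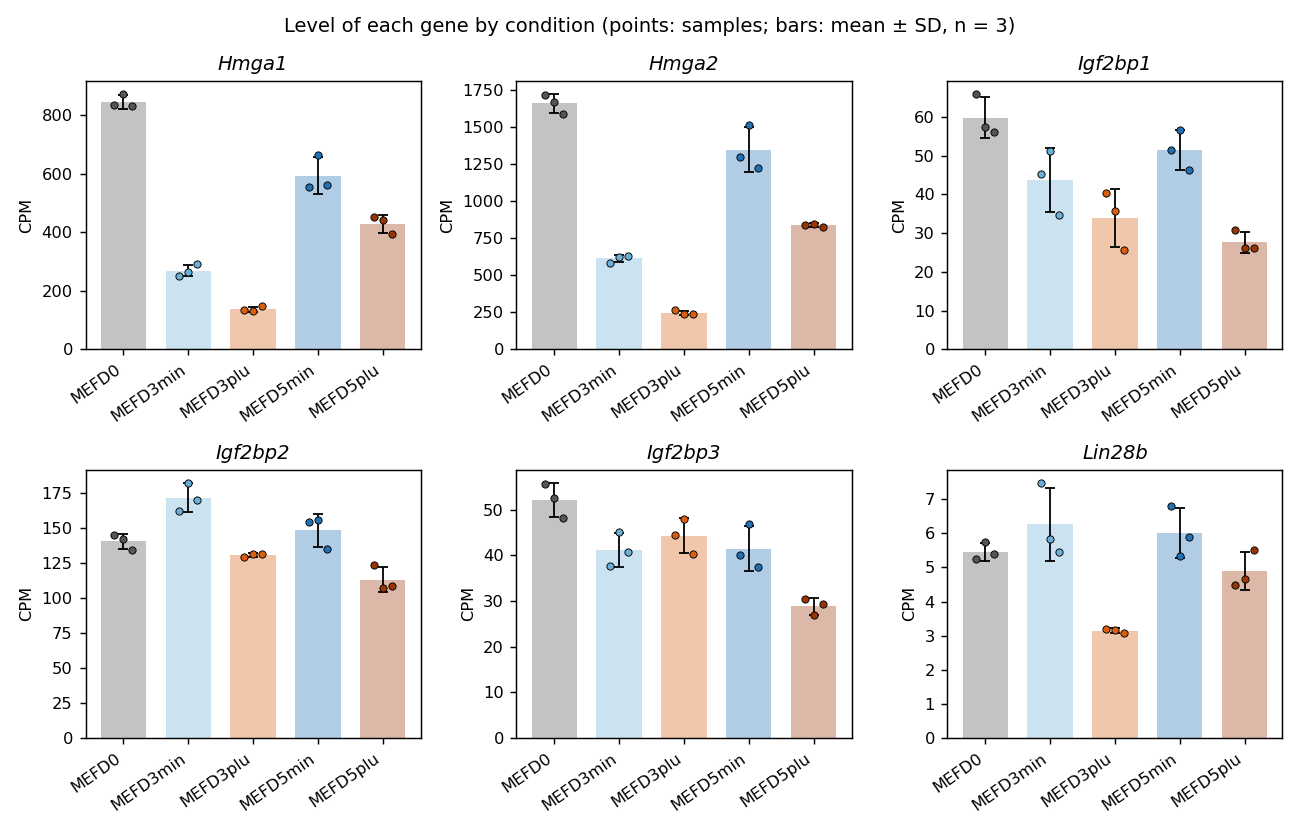
Points are the 3 samples of each condition, bars their mean and whiskers the SD, in CPM on axes that start at 0 and differ between genes. Hmga1 and Hmga2 fall to their lowest level in MEFD3plu and are higher again at day 5, whereas the Igf2bp genes and Lin28b move over a narrower range.

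The effect of the differentiation medium was compared at day 3 and at day 5. In MEFD3plu/MEFD3min, 4 of the 6 genes were lower and none was higher, where 28.0% of all tested genes were lower (56.1% changed in either direction). The 4 were also the members whose groups did not overlap, which 56.8% of all genes showed. Hmga2 fell by 1.31 on the log2 scale (SE 0.09, adjusted p = 1.34e-09, edgeR), to 40.2% of the untreated level, and Hmga1 by 0.97 (SE 0.09, adjusted p = 9.81e-08), to 51.1%. Lin28b fell by 0.99 (SE 0.15, adjusted p = 2.94e-05, edgeR) and Igf2bp2 by 0.39 (SE 0.08, adjusted p = 0.000483). Igf2bp3 did not pass the test, at a log2 change of 0.10 with a 95% interval from -0.11 to 0.32. All 7 tested adipocyte markers rose in the same comparison, and in MEFD5plu/MEFD5min, and 7 of 9 fibroblast markers were lower in MEFD3plu/MEFD3min (median -1.60, summed level 10965 to 12130 CPM against 21138 to 28386) and 2 of 9 in MEFD5plu/MEFD5min (median -0.17). The part of these marker changes in the values of the 6 genes was not tested.

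Igf2bp1 lay at the threshold at day 3. Its level was 45.3, 51.1 and 34.8 CPM in MEFD3min and 40.4, 35.7 and 25.7 CPM in MEFD3plu, so the groups overlapped, although each MEFD3plu sample was below the MEFD3min sample of its own number. The log2 change was -0.37 (95% interval -0.69 to -0.04) with an adjusted p of 0.0504 by edgeR's quasi-likelihood test. With the replicate number as a block, since same-numbered day 3 samples deviated together, the change was the same size and the adjusted p was 0.00636, so 5 of the 6 genes were then lower. Over all tested genes, 9452 of 15997 passed with the block, against 8967 without it. Igf2bp1 also passed without MEFD3min replicate 4 (adjusted p = 0.00665, edgeR) or without MEFD3plu replicate 1 (adjusted p = 0.0161), and by DESeq2 with all samples (adjusted p = 0.0492).

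In MEFD5plu/MEFD5min, 5 of the 6 genes were lower and none was higher, against 24.2% of all tested genes that were lower (50.5% changed in either direction). Igf2bp1 fell by 0.90 (SE 0.15, adjusted p = 0.000136, edgeR), Hmga2 by 0.68 (SE 0.09, adjusted p = 6.97e-06) and Igf2bp3 by 0.52 (SE 0.10, adjusted p = 0.000452). Hmga1 fell by 0.47 (SE 0.09, adjusted p = 0.000416, edgeR) and Igf2bp2 by 0.39 (SE 0.08, adjusted p = 0.000645). Lin28b had a log2 change of -0.30 (95% interval -0.61 to 0.01) and did not pass (adjusted p = 0.105, edgeR), but did with libraries scaled by total counts alone (-0.46, adjusted p = 0.0194), where the median of all genes moved by -0.16. Groups of the 5 called genes did not overlap at day 5, as for 62.1% of all genes.

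Whether the treated-to-untreated difference itself changed between the days was tested with the interaction of treatment and day, given as day 3 minus day 5. In all, 4 of the 6 genes passed, where 48.5% of all genes did: 3 had a negative interaction (25.8% of all genes) and 1 a positive (22.6%). Hmga2 (-0.63, SE 0.12, adjusted p = 0.000497, edgeR) and Hmga1 (-0.50, SE 0.13, adjusted p = 0.00387) had the larger fall at day 3, and Igf2bp3 (0.62, SE 0.14, adjusted p = 0.00184) had the more negative treatment value at day 5. Lin28b had an interaction of -0.69 (SE 0.21, adjusted p = 0.0124, edgeR), which was -0.52 with an adjusted p of 0.0628 when libraries were scaled by total counts alone. Igf2bp2 had the same log2 change on both days, with an interaction of 0.00 and a 95% interval from -0.23 to 0.23. For Igf2bp1 the interval ran from 0.07 to 0.99 (adjusted p = 0.0545, edgeR). It passed with the replicate block (0.52, adjusted p = 0.00818, edgeR), although same-numbered samples deviated together at day 3 and not at day 5. The block also raised the calls over all genes from 7754 to 8305. Igf2bp1 passed with total counts alone (0.71, adjusted p = 0.0241, edgeR), where the median of all genes moved by 0.18, and by DESeq2 (0.57, adjusted p = 0.0367). It also passed when MEFD3min replicate 3, MEFD3plu replicate 4, MEFD5min replicate 4 or MEFD5plu replicate 1 was left out (adjusted p from 0.00668 to 0.0412, edgeR).

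**Figure D3:**
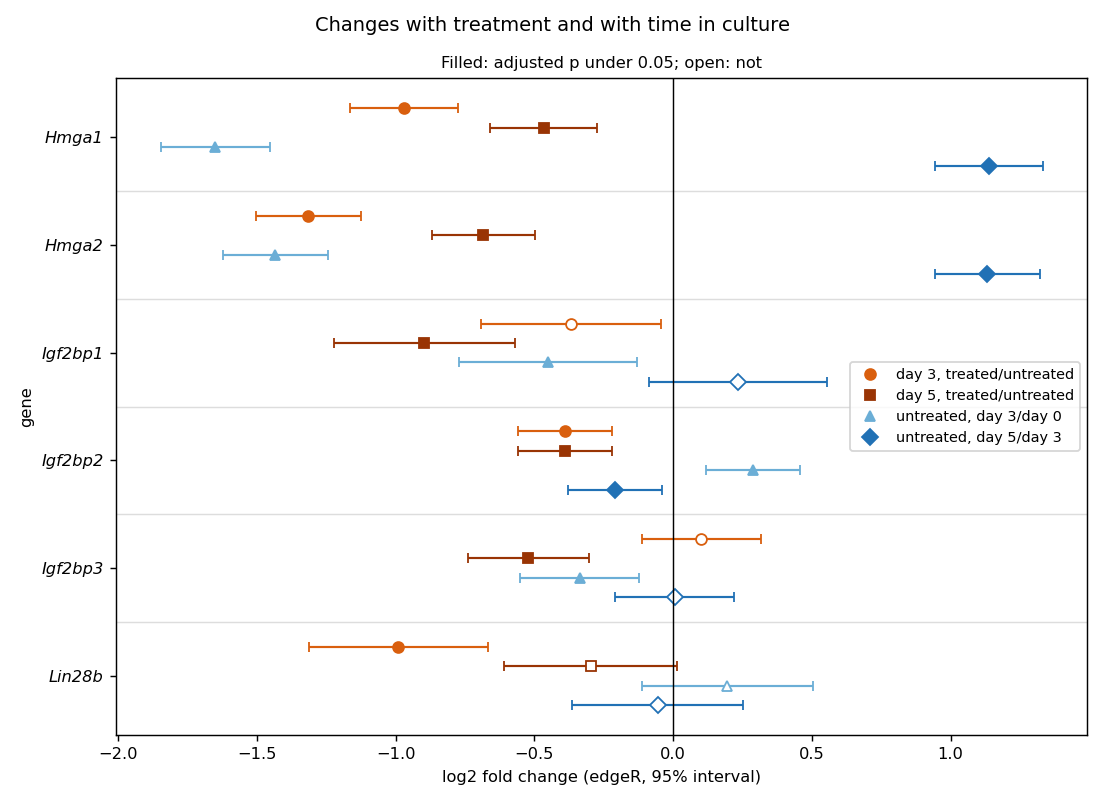
Log2 fold changes from edgeR with 95% intervals for the treatment comparisons at day 3 and day 5 and for untreated cells over time. Filled markers passed an adjusted p of 0.05. Hmga1 and Hmga2 fall with treatment and from day 0 to day 3 and rise from day 3 to day 5, while Igf2bp2 falls by the same size on both treated days.

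Untreated cells also differed between day 0 and day 3. Time in culture and the difference described above for MEFD0 cannot be told apart in this comparison. In MEFD3min/MEFD0, 4 of the 6 genes were lower (28.6% of all genes were) and 1 was higher (31.4% of all genes). Hmga1 fell by 1.65 (SE 0.09, adjusted p = 1.10e-10, edgeR), to 31.8% of the MEFD0 level, and Hmga2 by 1.44 (SE 0.09, adjusted p = 3.90e-10), to 37.0%. Igf2bp3 fell by 0.34 (SE 0.10, adjusted p = 0.00843, edgeR) and Igf2bp1 by 0.45 (SE 0.15, adjusted p = 0.0167), the latter no longer called without MEFD0 replicate 1 (-0.38, adjusted p = 0.0714) or without MEFD3min replicate 4 (-0.31, adjusted p = 0.0752). Igf2bp2 was the exception and rose by 0.29 (SE 0.08, adjusted p = 0.00520, edgeR), and Lin28b did not pass (0.20, 95% interval -0.11 to 0.50). The Igf2bp2 call was lost with libraries scaled by total counts alone (0.16, adjusted p = 0.115, edgeR). Of the 9 fibroblast markers, 6 were higher and 2 lower in the same comparison (median 2.12).

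Hmga1 and Hmga2 rose again in untreated cells from day 3 to day 5. In MEFD5min/MEFD3min, 2 of the 6 genes were higher (21.3% of all genes were) and 1 was lower (21.5%). Hmga1 rose by 1.14 (SE 0.09, adjusted p = 3.24e-08, edgeR) and Hmga2 by 1.13 (SE 0.09, adjusted p = 2.28e-08). The small fall of Igf2bp2 (-0.21, adjusted p = 0.0443, edgeR) held only when MEFD3min replicate 1, MEFD5min replicate 3 or MEFD5plu replicate 1 was the sample left out, and the adjusted p rose to 0.217 without MEFD5min replicate 4. That call was also lost with total counts alone (-0.11, adjusted p = 0.355, edgeR). Against MEFD0, MEFD5min was still lower for 3 of the 6 genes, where 21.9% of all genes were: Hmga1 by 0.51, Hmga2 by 0.30 and Igf2bp3 by 0.33, the last not called without MEFD0 replicate 1 (-0.28, adjusted p = 0.0610).

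Both Hmga genes rose from day 3 to day 5 in treated cells as well. In MEFD5plu/MEFD3plu, 3 of the 6 genes were higher (33.8% of all genes were) and 2 were lower (29.2%). Hmga2 rose by 1.76 (SE 0.09, adjusted p = 6.51e-11, edgeR), Hmga1 by 1.64 (SE 0.09, adjusted p = 2.26e-10) and Lin28b by 0.64 (SE 0.15, adjusted p = 0.00173). Igf2bp3 fell by 0.62 (SE 0.10, adjusted p = 5.98e-05, edgeR) over the same interval. Igf2bp2 fell by 0.21 (adjusted p = 0.0313), a call lost when any 1 of 5 samples was left out, MEFD5plu replicates 3 and 4 and MEFD3plu replicates 1, 3 and 4, with adjusted p up to 0.128. Igf2bp1 had -0.29 (adjusted p = 0.109, edgeR) and passed without MEFD3plu replicate 4 (-0.46, adjusted p = 0.0102).

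MEFD3plu held 16.3% of the MEFD0 level of Hmga1 and 14.9% of that of Hmga2, or log2 changes of -2.62 and -2.75. In MEFD3plu/MEFD0 4 of the 6 genes were lower, where 29.7% of all genes were, and the other two called were Igf2bp1 (-0.82) and Lin28b (-0.80). Igf2bp3 had -0.24 (adjusted p = 0.0514, edgeR) and passed when MEFD0 replicate 4, MEFD3min replicate 3 or 4, MEFD3plu replicate 3 or MEFD5min replicate 3 or 4 was left out (adjusted p from 0.0276 to 0.0469). In MEFD5plu/MEFD0, 5 of the 6 genes were lower, where 29.8% of all genes were, with Igf2bp1 at 46.2%, Hmga2 at 50.5%, Hmga1 at 50.8%, Igf2bp3 at 55.4% and Igf2bp2 at 80.5% of the MEFD0 level. Lin28b was at 89.6% and did not pass (95% interval of the log2 change -0.47 to 0.15). The comparisons with MEFD0 share its 3 samples, as those with MEFD3min or MEFD3plu share theirs.

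Genes of S phase and mitosis were lower in MEFD3min than in MEFD0 and higher again in MEFD5min, as Hmga1 and Hmga2 were. They also rose with both genes from day 3 to day 5 in treated cells. Few of them passed the test for treatment at day 3. The list of 15 genes, which holds Mki67 and Top2a (proliferation markers) and Mcm6 (a helicase subunit), had a summed level of 3594 to 3684 CPM in MEFD0, 742 to 917 in MEFD3min, 2691 to 2749 in MEFD5min, 763 to 822 in MEFD3plu and 1888 to 1922 in MEFD5plu. All 15 were lower in MEFD3min/MEFD0 (median log2 change -2.28, all genes 0.04, of which 28.6% were lower) and all 15 were higher in MEFD5min/MEFD3min (median 1.85, all genes -0.03, of which 21.3% were higher). All 15 were also higher in MEFD5plu/MEFD3plu (median 1.30, all genes 0.06, of which 33.8% were higher). In MEFD3plu/MEFD3min 1 of the 15 was higher and 2 were lower (median -0.04, all genes -0.00, of which 28.0% changed in each direction), with Mki67 at 0.07 and Top2a at 0.12 (adjusted p = 0.435 and 0.272, edgeR) and Mcm6 down by 0.72. In MEFD5plu/MEFD5min 11 of the 15 were lower and none was higher (median -0.43, all genes 0.01, of which 24.2% were lower). As a share of the MEFD0 mean, the list stood at 22.4% in MEFD3min and 21.7% in MEFD3plu, where Hmga2 went from 37.0% to 14.9% and Hmga1 from 31.8% to 16.3%. The part of the cell cycle in the Hmga levels was not tested.

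**Figure D4:**
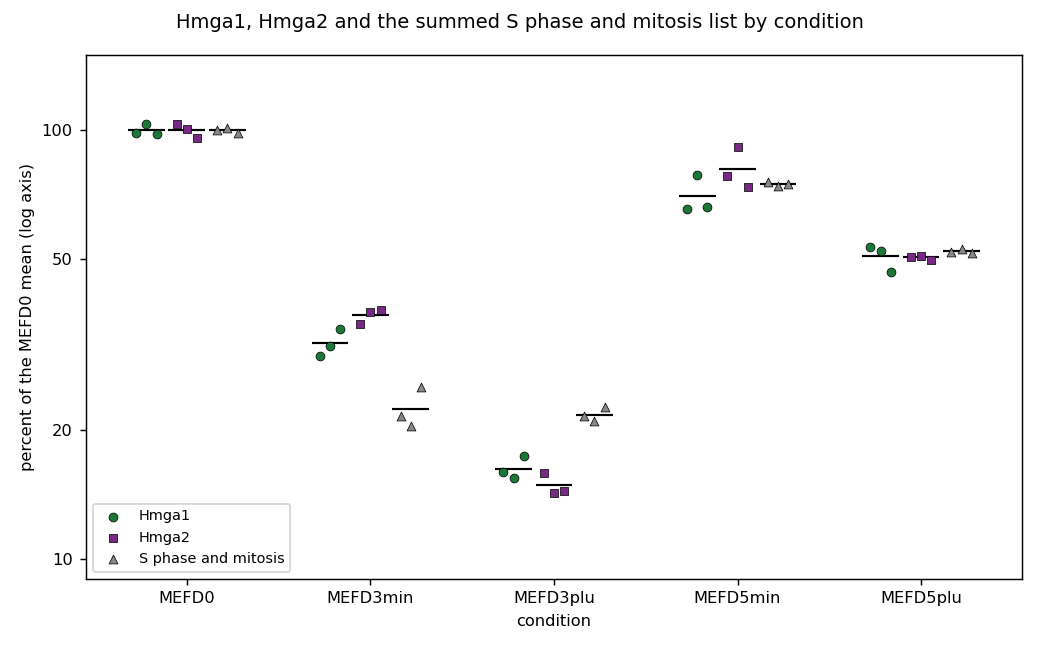
Each sample's level as a percentage of the MEFD0 mean, on a log axis, for Hmga1, Hmga2 and the summed S phase and mitosis list, with black lines at the condition means. The list sits at 22.4% and 21.7% on average in the untreated and treated day 3 conditions, whereas Hmga1 and Hmga2 are lower in MEFD3plu than in MEFD3min; at day 5 all 3 lie between 70.2% and 81.1% in MEFD5min and between 50.5% and 52.2% in MEFD5plu on average.

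Other high mobility group (HMG) genes numbered 9. Of these, 4 were lower and 1 higher in MEFD3plu/MEFD3min (median -0.13), 2 lower and 1 higher in MEFD5plu/MEFD5min (median -0.11), and 6 lower and 3 higher in MEFD3min/MEFD0 (median -0.59). Over all tested genes, 28.0% were lower and 28.0% higher in the first comparison, 24.2% lower and 26.3% higher in the second and 28.6% lower and 31.4% higher in the third. Hmgb2, a DNA-bending protein of dividing cells, fell by 2.03 from MEFD0 to MEFD3min (adjusted p = 5.43e-10, edgeR) but had a log2 change of -0.12 with treatment at day 3 (adjusted p = 0.422). Hmgn1, a nucleosome-binding protein, fell by 0.32 with treatment at day 3 (adjusted p = 0.0117, edgeR), and Ssrp1, a subunit of the FACT histone chaperone, had -0.13 (adjusted p = 0.145). Among 10 tested genes that act with Hmga2, 3 were higher and 5 lower in MEFD3plu/MEFD3min (median -0.27), against 28.0% of all genes in each direction. Plag1, a zinc finger factor that activates Igf2 and belongs to this list, fell by 0.50 at day 3 and rose by 0.50 at day 5. Ccna2, the S phase cyclin, changed by -0.15 at day 3 (adjusted p = 0.201, edgeR) and fell by 0.39 at day 5.

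The Hmga1 counts cannot be fully separated from those of Hmga1b, a near-identical copy of the gene. Of the 50-base stretches in annotated Hmga1 transcripts, 55.0% also occur in transcripts of other genes, mostly Hmga1b, which was counted at 6.74 ± 0.435 CPM in MEFD0 and 1.35 ± 0.317 CPM in MEFD3plu (SD, n = 3). Hmga1b fell by 0.72 with treatment at day 3 (adjusted p = 0.00583, edgeR), in the direction of Hmga1. AI413582 runs on the opposite strand over 4.80% of Hmga1 exon bases, and 1700006J14Rik over 2.07% of those of Hmga2. The strand setting of the counting is not given in the sources used here, so reads from these overlaps may be shared.

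The promoters of Hmga1 and Hmga2 are shown because these genes moved together in all 5 conditions. Each runs from 250 bases before to 50 after the annotated start in RefSeq (GRCm38.p6), chr17:27556324-27556623 on the plus strand for Hmga1, which has a second entry, and chr10:120476420-120476719 on the minus strand for Hmga2, with GC boxes (GGGCGG on either strand) in capitals.
Hmga1 promoter: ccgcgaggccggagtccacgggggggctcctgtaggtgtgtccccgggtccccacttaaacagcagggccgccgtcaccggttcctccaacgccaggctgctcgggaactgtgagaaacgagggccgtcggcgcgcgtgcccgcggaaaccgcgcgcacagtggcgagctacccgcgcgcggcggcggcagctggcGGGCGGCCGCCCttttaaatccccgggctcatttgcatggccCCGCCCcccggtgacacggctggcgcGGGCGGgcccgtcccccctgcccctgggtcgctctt
Hmga2 promoter: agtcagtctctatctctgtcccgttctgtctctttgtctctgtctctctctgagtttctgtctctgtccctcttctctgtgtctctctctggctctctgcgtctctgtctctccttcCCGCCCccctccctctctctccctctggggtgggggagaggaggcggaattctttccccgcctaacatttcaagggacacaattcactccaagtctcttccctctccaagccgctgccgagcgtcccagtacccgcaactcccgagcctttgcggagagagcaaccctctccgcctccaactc
The Hmga1 window held 4 GC boxes and the Hmga2 window 1, and 35.7% of 32851 mouse promoter windows of this length held at least 1. Neither window held a CCAAT box (CCAAT, in 37.4% of windows), a TATA box (TATAAA, 13.6%), an E-box (CACGTG, 7.15%), a full cyclic AMP response element (TGACGTCA, 1.79%) or an AP-1 site (TGAGTCA, 5.20%), each searched on both strands. The CpG observed-to-expected ratio was 0.975 for Hmga1 and 0.544 for Hmga2, above 92.7% and 60.8% of all windows. The E-box was present at 2 places in the Igf2bp3 window and 1 in that of Lin28b, and the Igf2bp2 window held 2 GC boxes.

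The Igf2bp genes differed from one another in level and in timing. Igf2bp2 (chr16:22059009-22163299, minus strand, ENSMUSG00000033581) was the main member per kilobase of exon, with 60.3% ± 1.11 of the summed family level in MEFD0 (SD, n = 3) and 70.9% ± 1.73 in MEFD3min. Its level was 145, 143 and 135 CPM in MEFD0, 162, 183 and 170 in MEFD3min, 155, 156 and 135 in MEFD5min, 130, 132 and 132 in MEFD3plu and 124, 108 and 109 in MEFD5plu. All treated samples were below all untreated samples of the same day, and the whole range across conditions stayed within 108 to 183 CPM. From high to low the order was MEFD3min, MEFD5min, MEFD0, MEFD3plu and MEFD5plu, and its middle neighbours did not differ beyond their spread.

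Igf2bp1 (chr11:95957163-96005940, minus strand, ENSMUSG00000013415) was at 66.0, 57.3 and 56.2 CPM in MEFD0, 51.4, 56.7 and 46.3 in MEFD5min and 30.7, 26.1 and 26.1 in MEFD5plu, beside the day 3 values given above. None of the 4 neighbours in its order (MEFD0, MEFD5min, MEFD3min, MEFD3plu, MEFD5plu) differed beyond the threshold, although the ends of the order did. Its share of the family was 19.5% ± 0.903 in MEFD0 and 13.1% ± 0.322 in MEFD5plu (SD, n = 3).

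Igf2bp3 (chr6:49085223-49214957, minus strand, ENSMUSG00000029814) was at 55.7, 52.6 and 48.1 CPM in MEFD0, 37.7, 45.2 and 40.8 in MEFD3min, 40.2, 46.9 and 37.4 in MEFD5min, 44.5, 47.9 and 40.4 in MEFD3plu and 30.4, 26.8 and 29.3 in MEFD5plu. The MEFD5plu samples were below all others, and only the step from MEFD3min to MEFD5plu at the low end of its order passed the test. Malsu1, a mitochondrial ribosome factor on the opposite strand, overlaps 18.7% of Igf2bp3 exon bases; it was counted at 16.3 CPM in MEFD0 and 30.2 CPM in MEFD5plu and rose with treatment by 0.33 at day 3 and 0.43 at day 5 (adjusted p = 0.0399 and 0.0108, edgeR), and its part in the Igf2bp3 counts was not tested.

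Among RNAs that Igf2bp proteins are known to bind, 9 were tested. Of these, 3 were higher and 3 lower in MEFD3plu/MEFD3min (median 0.19) and 3 higher and 5 lower in MEFD5plu/MEFD5min (median -0.65), where all genes had 28.0% in each direction at day 3 and 26.3% higher and 24.2% lower at day 5. Igf2, the growth factor whose mRNA gave the family its name, was almost absent in MEFD0, at 7 to 66 counts per sample or 0.783 ± 0.918 CPM, and stood at 2436 ± 166 CPM in MEFD3min, 933 ± 200.3 in MEFD5min, 1032 ± 107 in MEFD3plu and 997 ± 280 in MEFD5plu (SD, n = 3). H19, the noncoding RNA beside Igf2, was at 1.99 ± 1.35 CPM in MEFD0 and between 569 and 3257 CPM on average in the other conditions. With treatment at day 3 Igf2 fell by 1.24 (adjusted p = 0.00139, edgeR) while H19 rose by 1.06 (adjusted p = 0.000810), and at day 5 H19 rose by 1.62 while Igf2 changed by 0.10 (adjusted p = 0.805). Actb, the cytoplasmic actin, fell by 0.40 at day 3 and 0.91 at day 5. Myc, a growth-promoting transcription factor, rose by 1.56 at day 3 and fell by 0.83 at day 5.

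The m6A machinery, counted because the Igf2bp proteins read that mark, is given by its counts beside those of all genes, of which 28.0% were higher and 28.0% lower with treatment at day 3 and 26.3% higher and 24.2% lower at day 5. Of 8 other m6A readers, 4 were higher and none lower in MEFD3plu/MEFD3min (median 0.19), and none was higher and 4 were lower in MEFD5plu/MEFD5min (median -0.25). Hnrnpa2b1, a nuclear reader, rose by 0.35 at day 3 (adjusted p = 0.000597, edgeR) and had 0.15 at day 5 (adjusted p = 0.0940), and Hnrnpc and Ythdf3 passed on neither day. Of 10 writers and erasers, 4 were higher and none lower at day 3 (median 0.09), and 2 were higher and 5 lower at day 5 (median -0.32). The interaction of treatment and day passed with a positive value for 5 of the readers and 5 of the writers and erasers, and with a negative value for 0 and 2, where 22.6% of all genes had a positive and 25.8% a negative interaction. Alkbh5, a demethylase, rose by 0.35 at day 3 and fell by 0.50 at day 5, Wtap, a writer subunit, had -0.18 at day 3 (adjusted p = 0.110, edgeR) and rose by 0.27 at day 5, and Virma, another writer subunit, passed on neither day.

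Lin28b (chr10:45376620-45486395, minus strand, ENSMUSG00000063804) was the scarcest of the 6. Its level was 5.25, 5.75 and 5.39 CPM in MEFD0, 7.49, 5.84 and 5.45 in MEFD3min, 6.79, 5.33 and 5.89 in MEFD5min, 3.21, 3.16 and 3.07 in MEFD3plu and 4.50, 4.67 and 5.52 in MEFD5plu. The 3 MEFD3plu samples were below all other samples and close to each other, and the other 4 conditions overlapped. Only the step from MEFD5plu to MEFD3plu passed among the neighbours in its order.

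Of 13 genes of Lin28 action and let-7 processing, 11 were tested with Lin28b included. In MEFD3plu/MEFD3min 2 were higher and 6 lower (median -0.22), and in MEFD5plu/MEFD5min 1 was higher and 7 lower (median -0.48, all genes 0.01), against 28.0% of all genes in each direction at day 3 and 26.3% higher and 24.2% lower at day 5. Dicer1, which cuts microRNA precursors, and Xpo5, which exports them, rose by 0.69 and 0.57 at day 3 and fell by 0.73 and 0.48 at day 5. Ago2, the microRNA-loaded slicer, had 0.34 at day 3 (adjusted p = 0.143, edgeR) and fell by 0.97 at day 5. Tut4 and Tut7, enzymes that can add uridines to let-7 precursors, fell by 0.59 and 0.22 at day 3. At day 5 Tut7 rose by 0.32 while Tut4 had -0.18 (adjusted p = 0.0979, edgeR).

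Genes known as let-7 targets were counted as a list of 23, of which 22 were tested and 5 (Hmga2, Lin28b and the 3 Igf2bp genes) belong to the 6 described here. In MEFD3plu/MEFD3min 6 were higher and 9 lower (median -0.14), and in MEFD5plu/MEFD5min 1 was higher and 14 lower (median -0.51, all genes 0.01), beside the same shares of all genes (28.0% in each direction, then 26.3% and 24.2%). Ccnd1, a G1 cyclin, fell by 1.07 at day 3 and 0.61 at day 5, and Ccnd2 passed on neither day. Grouped by the number of seed matches alone, the 26 tested genes with at least 3 had a median log2 change of 0.08 in MEFD3plu/MEFD3min and -0.24 in MEFD5plu/MEFD5min. Hmga2, Igf2bp1 and Lin28b are among these 26, so their own changes enter both medians. The 11766 genes with none had -0.01 and 0.02. The median 3′ UTR was 4678 bases in the first group and 1072 in the second.

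The genes with the course most like each member over the 15 samples were found by the correlation of log2 CPM among 9382 protein-coding genes (9383 for Lin28b), as a description of points that share libraries and conditions. For Hmga1 these were Haus8 (r = 0.993), Nmt2 (0.991) and Abcb1b (0.990), and for Hmga2 they were Fam131b (0.993), Ywhah (0.992) and Slc25a13 (0.991). For Igf2bp1 they were Traf3 (0.965), E2f8 (0.964) and Lonrf1 (0.964), for Igf2bp2 Crim1 (0.972), Fn1 (0.959) and Plekho2 (0.951), and for Igf2bp3 Zfp668 (0.984), Sf3a1 (0.975) and Znrf3 (0.973). For Lin28b they were Arhgap6 (0.946), Arhgap18 (0.940) and Zfp57 (0.939).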

How the data were processed

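The authors deposited 1 table of raw read counts per gene for each of 15 RNA libraries, with 46603 mouse Ensembl genes. Their processing notes name TopHat2 2.1.0, HTSeq and DESeq2 and the builds GRCm38 and mm10. The labels name an unstranded library kit and the paper a stranded one, and the annotation release, strand setting and treatment of multi-mapped reads are not given in the sources used here. Depth was 24030558 to 37281126 counts per sample.

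Counts were fitted in edgeR 4.0.16 (R 4.3.3, limma 3.58.1): filterByExpr (15997 genes kept), TMM scaling, quasi-likelihood tests over all 15 samples, Benjamini-Hochberg adjustment over all tested genes and a threshold of 0.05. The fit was tested on simulated data. CPM values use TMM-scaled library sizes, and levels per kilobase use the union of GENCODE M21 exons. DESeq2 1.42.0, other scalings and filters, a replicate block and the omission of each sample were alternatives. Samples with the same number in MEFD3plu and MEFD3min deviated together (r from 0.143 to 0.360 in 3 of 3 pairs). In MEFD3min/MEFD0 and MEFD3plu/MEFD0, 2 of 3 pairs had r over 0.1 and every sample matched its own number best. In the other comparisons at most 1 of 3 pairs had r over 0.1.

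The members, lists and tests were chosen with earlier results of these data known. The limits of 20-fold and 10 CPM behind the MEFD0 count, and the count of genes with no overlap in any pair of conditions, were chosen after values were seen. In lists, the genes with the highest mean CPM were named, plus genes given with their role, and a gene that this rule named is not reported here. For each member, the 3 protein-coding genes with the highest Pearson r and a mean log2 CPM (prior count 2) of at least 3 were named. Protein sequences were not analysed here.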

Additional observations from a re-analysis of the deposited data

Results flagged for a closer look

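In 4 of the 6 genes the treated-to-untreated difference itself changed between day 3 and day 5 (interaction in edgeR, day 3 minus day 5, n = 3 samples in each of 4 conditions), as it did in 48.5% of all tested genes. The values were -0.50 for Hmga1, -0.63 for Hmga2 and -0.69 for Lin28b, which were reduced more at day 3, and 0.62 for Igf2bp3, which was reduced at day 5. With libraries scaled by total counts alone, Lin28b had -0.52 and did not pass (adjusted p = 0.0628, edgeR). Groups of 3 samples are too small for the test of single outlying samples used here.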

How the results depend on the processing

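The count of members passing stayed within 1.5 times its value under every alternative run. Leaving out each sample in turn gave 4 to 5 called in MEFD3plu/MEFD3min, 5 in MEFD5plu/MEFD5min, 4 to 5 for the interaction, 4 to 5 in MEFD3min/MEFD0, 2 to 3 in MEFD5min/MEFD0, 2 to 3 in MEFD5min/MEFD3min, 4 to 5 in MEFD5plu/MEFD3plu, 4 to 5 in MEFD3plu/MEFD0 and 5 in MEFD5plu/MEFD0, and 10 to 13 of the 24 neighbouring steps in the orders of levels. Over all genes, 16388 to 16481 were tested in these fits. Those called ran from 8157 to 9283 in MEFD3plu/MEFD3min, 6818 to 8691 in MEFD5plu/MEFD5min and 7032 to 8498 for the interaction. Against MEFD0 they were 8860 to 9723 in MEFD3min, 6226 to 8062 in MEFD5min, 9482 to 10711 in MEFD3plu and 9655 to 10941 in MEFD5plu. From day 3 to day 5 they ran from 5937 to 7286 in untreated cells and 9146 to 10543 in treated cells. Of 486 values of single members under an alternative, where the leave-one-out fits enter only by their lowest and highest value of each result, 445 kept direction and call, 23 gained the call, 10 lost it and 8 turned sign, all 8 near 0 and never called. The Igf2bp2 interaction was -0.0174 without the filter, -0.0092 with at least 10 counts in every sample, -0.000876 with the replicate block and -0.0385 to 0.107 over the leave-one-out fits. In MEFD5min/MEFD3min, Igf2bp3 was -0.035 without the filter and -0.0881 to 0.0765 over the leave-one-out fits, and Lin28b was 0.0402 with total counts and -0.153 to 0.0924 over the leave-one-out fits. With the replicate block, Igf2bp1 also passed for the interaction (0.52, adjusted p = 0.00818), where same-numbered samples deviated together at day 3 but not at day 5, and in MEFD5plu/MEFD3plu (-0.28, adjusted p = 0.0333), where no pair did. Igf2bp3 passed with it in MEFD3plu/MEFD0 (-0.24, adjusted p = 0.0292), where 2 of 3 pairs had r over 0.1 and every sample matched its own number best, a hint from the data and not from the design. The block removed no call. Over all 15997 tested genes the block also raised the calls. They went from 7754 to 8305 for the interaction, 10071 to 10415 in MEFD5plu/MEFD3plu and 10162 to 10553 in MEFD3plu/MEFD0. Scaling by total counts moved the median of all genes by -0.16 in MEFD5plu/MEFD5min, where the share of genes higher went from 52.1% to 37.0%, by -0.12 in MEFD3min/MEFD0, by 0.18 for the interaction (46.7% to 59.5%) and by -0.18 in MEFD5plu/MEFD0 (54.2% to 43.7%), and the share went from 49.7% to 62.7% in MEFD5min/MEFD3min. With transcript length in place of exon length, Hmga1 was 45.4% to 51.4% of the summed Hmga1 and Hmga2 level instead of 58.2% to 63.9%, so which of them is higher per kilobase depends on the length used. A prior count of 0.5 put Etl4 in the place of Zfp57 among the genes most like Lin28b. The causes were not tested. The low counts of Lin28b limit its precision.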
